A study of Mus musculus with 12 samples.

Results

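The genes described here are 9 that mark or specify the macrophage lineage: the transcription factor genes *Spi1*, *Cebpa*, *Cebpb*, *Cebpd* and *Maf*, and the marker genes *Adgre1*, *Mertk*, *Lyz2* and *Cd68*. They were chosen by name from the deposited table, which lists 12850 genes, and all 9 were found. RNA was sequenced from thioglycollate-elicited peritoneal exudate cells (PECs) of C57BL/6 mice, the cells that gather in the abdominal cavity after an irritant is injected, in this case 2 ml of 4% thioglycollate medium given 3.5 days before collection. The mice were WT or *Zc3h12a* S513A/S513A (S513A), a knock-in made with CRISPR/Cas9 that replaces a serine of the endoribonuclease Regnase-1, so all cells of these mice carry the change. Cultured PECs of each genotype were stimulated with lipopolysaccharide (LPS, from the outer membrane of bacteria, 100 ng/ml) and collected at 0, 4 and 8 hr, which gave 6 groups of 2 libraries. The deposited log2 CPM values (reads scaled to a common library size, with 0.5 read added) rested on 9525979 to 12439960 reads per library, and the lowest count of any of the 9 genes in any library was 203 reads. The labels do not say whether the 2 libraries of a group came from separate mice, so the p values below measure the spread between these samples only, which may be technical.

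*Spi1* encodes PU.1, the ETS-family factor that myeloid cells need to form and that binds at most macrophage enhancers. The C/EBP factors bind beside it: C/EBPα directs progenitors towards granulocytes and monocytes, whereas C/EBPβ and C/EBPδ are known as inflammatory members of the family, and c-Maf, the product of *Maf*, is a basic leucine zipper factor of mature macrophages. *Adgre1* encodes the adhesion receptor known as the F4/80 antigen, *Mertk* a receptor tyrosine kinase for uptake of apoptotic cells, *Lyz2* lysozyme M, and *Cd68* the lysosomal glycoprotein macrosialin.

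Promoter sequences, from 250 bases before to 50 bases after the start, were in the RefSeq table (GRCm38.p6) for 5 of the 9 genes, namely *Cebpa*, *Cebpb*, *Mertk*, *Lyz2* and *Cd68*. Those of *Cebpa* and *Cebpb* are shown because these neighbours in one family moved in opposite directions after LPS, and that of *Cd68* because it holds letters that PU.1 and C/EBP factors can bind. Both strands were searched for 7 motifs, and capitals mark the matches. The motif of C/EBP factors was taken as TTGCNNAA and that of PU.1 as GAGGAA. AP-1 was searched as TGANTCA, the core of the cAMP response element (CRE) as TGACG, and the TATA box as TATAAA. The kappaB motif and the STAT motif TTCNNNGAA were also searched. The *Cebpa* promoter lies at chr7:35119043-35119342 on the plus strand, the *Cebpb* promoter at chr2:167688665-167688964 on the plus strand and the *Cd68* promoter at chr11:69666121-69666420 on the minus strand.
Cebpa: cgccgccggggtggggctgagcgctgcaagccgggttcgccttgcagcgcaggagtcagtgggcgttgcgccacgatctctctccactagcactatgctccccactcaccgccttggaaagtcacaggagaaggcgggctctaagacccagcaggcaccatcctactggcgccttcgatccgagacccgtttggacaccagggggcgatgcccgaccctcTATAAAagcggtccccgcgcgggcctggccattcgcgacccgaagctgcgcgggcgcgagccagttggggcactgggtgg
Cebpb: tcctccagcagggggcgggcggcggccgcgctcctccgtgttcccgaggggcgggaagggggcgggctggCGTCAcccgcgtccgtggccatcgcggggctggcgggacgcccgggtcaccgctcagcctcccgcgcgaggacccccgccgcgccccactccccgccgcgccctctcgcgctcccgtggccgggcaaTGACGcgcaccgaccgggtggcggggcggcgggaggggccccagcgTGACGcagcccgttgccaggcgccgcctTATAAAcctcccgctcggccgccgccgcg
Cd68: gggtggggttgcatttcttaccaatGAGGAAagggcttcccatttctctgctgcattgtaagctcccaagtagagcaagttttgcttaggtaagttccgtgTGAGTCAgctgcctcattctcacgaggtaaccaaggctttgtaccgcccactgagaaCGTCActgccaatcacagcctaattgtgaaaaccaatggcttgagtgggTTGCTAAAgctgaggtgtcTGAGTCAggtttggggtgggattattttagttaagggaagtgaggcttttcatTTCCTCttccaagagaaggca

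The *Cebpa* promoter held 1 match, a TATA motif 30 bases before the start. The *Cebpb* promoter held 3 CRE cores, 180, 53 and 7 bases before the start, and a TATA motif 21 bases after it. In the *Cd68* promoter there were 2 matches to the PU.1 motif, 2 to AP-1, 1 to C/EBP and 1 to the CRE core, and no matches overlapped in any of the 3 promoters. Of all 32851 promoters in the table, 10.8% held the C/EBP motif, 28.3% the PU.1 motif, 5.56% kappaB, 7.81% AP-1, 20.8% the CRE core, 13.6% TATA and 8.3% STAT. Neither the *Mertk* nor the *Lyz2* promoter held any of the 7 motifs, and none of the 5 promoters held kappaB or STAT, which says only that these letters are not in these windows.

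Before LPS, the levels of the 9 genes covered a wide range. Per exonic kilobase, *Lyz2* stood at 13060 CPM at 0 hr (SD 1323 over the 4 libraries of both genotypes), *Cd68* at 1406 (SD 109) and *Adgre1* at 338 (SD 25.9). The C/EBP and PU.1 genes followed, with *Cebpb* at 146 CPM per kilobase (SD 17.0), *Cebpa* at 122 (SD 11.6) and *Spi1* at 99.4 (SD 4.61). The lowest levels per kilobase were those of *Mertk* at 22.2 (SD 2.63), *Maf* at 7.87 (SD 0.748) and *Cebpd* at 4.95 (SD 0.705). Neighbours in this order were further apart than their SDs, except that the ranges of mean ± SD of *Cebpb* and *Cebpa* overlapped. With the longest transcript as the length, *Spi1* came to 132 and passed *Cebpa*, which stayed at 122. On the log2 CPM scale, *Lyz2* had the highest mean of all listed genes but 1.

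The cells carried macrophage markers. All 18 genes of a list of general macrophage markers were in the table, with summed levels of 25500 to 33000 CPM over all libraries. Presence in the table alone does not identify the cells. Of the lists for other cells, the table held 4 of 5 B cell, 4 of 5 dendritic cell, 3 of 5 mast cell, 3 of 4 mesothelial, 2 of 4 eosinophil, 2 of 5 T cell, 4 of 10 neutrophil and none of 5 erythroid markers. Summed levels were 3.44 to 8.87 CPM for the B cell markers and 0.487 to 2.26 CPM for the mesothelial markers over all libraries. The summed level of the 4 neutrophil markers in the table was 741 to 829 CPM at 0 hr and 491 to 682 CPM at 8 hr, mostly from *Mmp8*, a collagenase gene with a mean log2 CPM of 9.4 at 0 hr. Of these 4, 2 rose and 1 fell at 4 hr, and 3 rose and 1 fell at 8 hr, the fall being that of *Mmp8*. Over all genes tested, 29.1% were called higher and 26.7% lower at 4 hr, and 24.5% and 21.6% at 8 hr. The 5 markers of resident peritoneal macrophages in the table summed to 72.7 to 106 CPM without LPS and 134 to 165 CPM at 8 hr. Of these 5, *Prg4* and *Timd4* rose at both times and *Gata6* fell at 8 hr, with a median log2 change over the 5 of -0.02 after 4 hr and -0.04 after 8 hr. Single markers of rarer cells moved too: *Siglecf* (eosinophils) came to -0.97 (log2) after 4 hr of LPS and -2.17 after 8 hr, *Clec9a* (dendritic cells) to -2.29 and -1.78, all called, and *Cd247* (T cells) was called higher at both times. Of the 3 dendritic cell markers tested, 2 were called higher at 4 hr and 1 at 8 hr, and only *Clec9a* was called lower. The median log2 change over these 3 was 1.08 and 0.96. The summed levels of the lists of these rarer cells were at most 18.5 CPM for eosinophils, 6.27 CPM for dendritic cells and 8.6 CPM for T cells. The part of these markers in the results below was not tested, and in bulk RNA fewer cells of a type and less RNA per cell cannot be told apart.

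Libraries also differed in the balance of short and long transcripts. The shortest 20% of transcripts minus the longest 20%, as a median log2 deviation from the time point's mean, was -0.61 in WT replicate 2 at 4 hr and -0.51 in S513A replicate 1 at 8 hr, and -0.2 to 0.42 in the other 10 libraries. At 0 hr it was -0.2 and -0.19 in WT and 0.22 and 0.19 in S513A. At 8 hr it was 0.2 and 0.33 in WT and -0.51 and 0.01 in S513A. At both times the genotypes did not overlap, so there this balance and the genotype cannot be told apart. Results that move with it are given with these values.

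The first question was how the lineage genes responded to LPS. The 5 factor genes split, with *Spi1*, *Cebpb* and *Cebpd* higher and *Cebpa* lower at both time points and *Maf* lower at 8 hr. Among the markers *Adgre1* was higher and *Cd68* lower at both times, *Mertk* was lower at 4 hr, and *Lyz2* was not called. In a limma model of all 12 libraries, with Benjamini-Hochberg adjustment over 11885 genes and both genotypes averaged, 7 of the 9 genes were called at 4 hr against 0 hr at an adjusted p under 0.05. Of these, 4 were higher and 3 lower, where 29.1% of all genes tested were called higher and 26.7% lower. At 8 hr again 4 were higher and 3 lower, against 24.5% and 21.6% of all genes. Over the 9 genes the log2 fold change had a median of 0.23 at 4 hr and -0.20 at 8 hr, beside 0.02 and -0.0007 over every gene tested. Between 4 and 8 hr, 3 genes rose and 3 fell, and 12.8% of all genes were called in each direction.

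**Figure D1:**
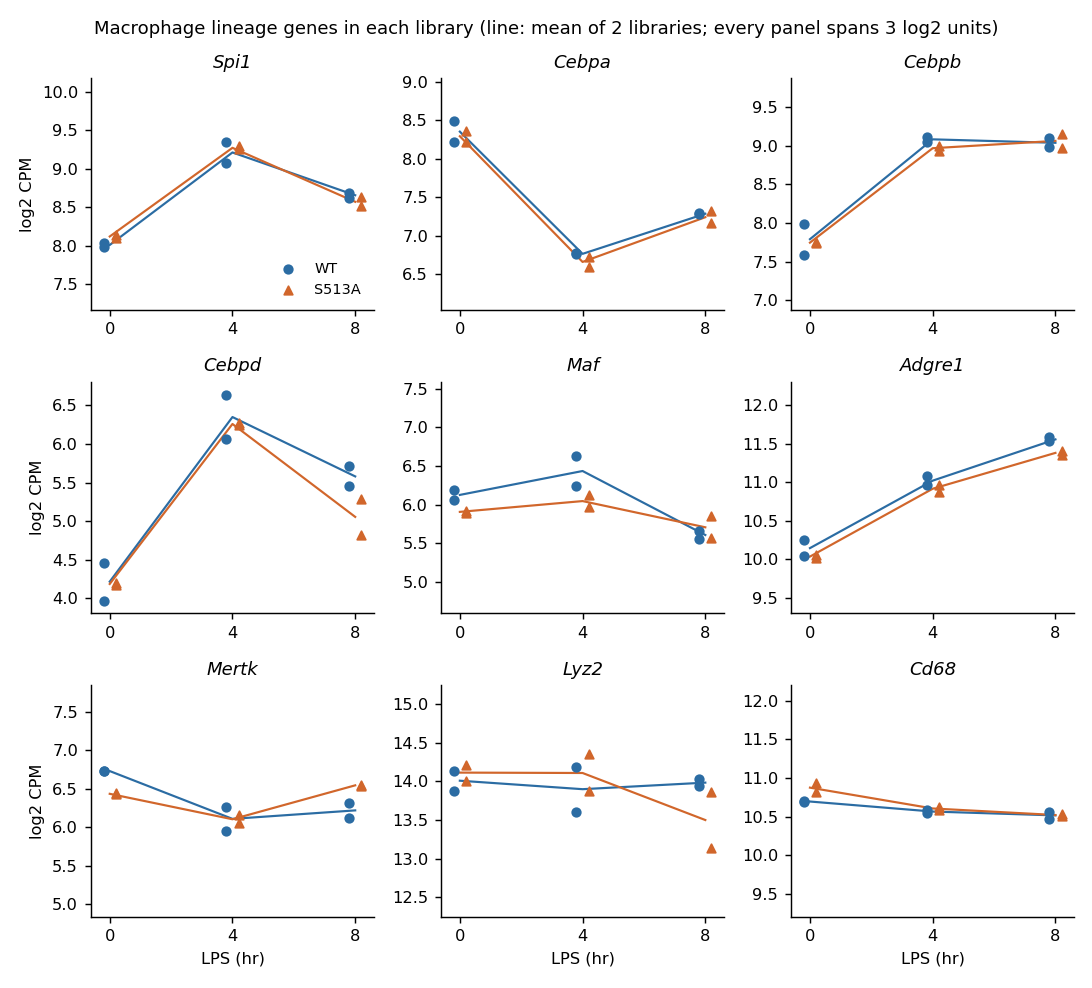
Log2 CPM of each of the 9 genes (vertical axes, each spanning the same number of log2 units) against hours of LPS, with 1 point per library, circles for WT and triangles for S513A, and lines through the means of 2 libraries. *Spi1* and *Cebpd* peak at 4 hr, *Cebpa* is lowest at 4 hr, *Adgre1* rises through 8 hr, and the 2 genotypes lie close together in most panels.

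*Spi1* (Entrez 20375, chr2:91082390-91115756, plus strand, with this and the positions below on GRCm38) rose and then partly returned. In WT its log2 CPM was 8.03 and 7.99 before LPS, 9.35 and 9.07 after 4 hr, and 8.62 and 8.69 after 8 hr. In S513A it was 8.1 and 8.14 before LPS, 9.29 and 9.25 after 4 hr, and 8.51 and 8.63 after 8 hr. The 3 time points did not overlap. The log2 fold change against 0 hr was 1.17 (SE 0.080, adjusted p = 4.027e-07 by limma) at 4 hr and 0.55 (adjusted p = 0.000214) at 8 hr. From 4 to 8 hr *Spi1* fell by 0.63 (log2, adjusted p = 0.0003). Under quantile normalization the rise was 0.77 at 4 hr and 0.27 at 8 hr, both past the test.

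*Cebpa* (Entrez 12606, chr7:35119293-35121928, plus strand, a single exon) fell at both times. WT libraries had a log2 CPM of 8.49 and 8.21 before LPS, 6.77 and 6.76 after 4 hr, and 7.28 and 7.29 after 8 hr. S513A libraries had 8.22 and 8.36, then 6.73 and 6.59, then 7.16 and 7.32. Every library at 4 hr lay below every library at 8 hr, and these below every library at 0 hr. *Cebpa* fell by 1.61 (log2) at 4 hr (a 3.04-fold drop, SE 0.085, limma adjusted p = 5.383e-08) and stood 1.06 below its 0 hr level at 8 hr, after a rise of 0.55 from 4 to 8 hr (adjusted p = 0.000978).

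*Cebpb* (Entrez 12608, chr2:167688915-167690418, plus strand, a single exon) rose and stayed high. Its log2 CPM in WT was 7.99 and 7.59 before LPS, 9.12 and 9.05 after 4 hr, and 8.98 and 9.1 after 8 hr. In S513A the values were 7.74 and 7.75, then 9 and 8.94, then 8.97 and 9.16. All libraries with LPS were above all without, and those at 4 and 8 hr overlapped. At 4 hr the log2 fold change was 1.26 (SE 0.095, limma adjusted p = 9.717e-07). It was 1.28 at 8 hr (adjusted p = 1.03e-06), and 0.03 (95% interval -0.18 to 0.24) between 4 and 8 hr. An exon of *Tmem189*, on the other strand, shares 312 bases with *Cebpb*, and without strand such reads cannot be assigned. *Tmem189* itself averaged 8.13, 7.79 and 8.11 log2 CPM over the 3 times.

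*Cebpd* (Entrez 12609, chr16:15887286-15891031, plus strand) showed the steepest early rise of the 9 genes. In WT its log2 CPM was 4.46 and 3.97 before LPS, 6.64 and 6.06 after 4 hr, and 5.71 and 5.45 after 8 hr. In S513A it was 4.17 and 4.2, then 6.25 and 6.27, then 4.82 and 5.29. No 2 time points overlapped. The fold change was 4.29 at 4 hr (2.101 on the log2 scale, SE 0.157, limma adjusted p = 8.665e-07) and 2.17 at 8 hr (adjusted p = 0.000163), and the fall of 0.98 between them also passed (adjusted p = 0.00121). *Spidr*, on the other strand, shares 562 exonic bases with *Cebpd* and had a mean log2 CPM of 4.27, 4.17 and 4.67 at 0, 4 and 8 hr.

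*Maf* (Entrez 17132, chr8:115682942-115707794, minus strand) changed little, and against 0 hr it was called only at 8 hr. WT libraries had a log2 CPM of 6.19 and 6.06 before LPS, 6.24 and 6.63 after 4 hr, and 5.66 and 5.55 after 8 hr, and S513A libraries had 5.92 and 5.89, 6.12 and 5.97, and 5.85 and 5.56. The libraries at 8 hr lay below those at 0 hr, while those at 4 hr overlapped with 0 hr when the genotypes were pooled. Within each genotype, both libraries at 4 hr lay above both at 0 hr, a pattern whose share over all genes was not counted. The log2 fold change was 0.23 at 4 hr (95% interval -0.0021 to 0.45, limma adjusted p = 0.085) and *Maf* fell by 0.36 at 8 hr (adjusted p = 0.015), with a fall of 0.59 from 4 to 8 hr (adjusted p = 0.00212). WT replicate 2 at 4 hr, the library with the strongest shift to long transcripts, had the highest *Maf* value, 0.39 above the mean of its time point. Without WT replicate 1 at 4 hr the change at 4 hr passed, at 0.32 (adjusted p = 0.0124), and with a trend with transcript length removed it passed at 0.23 (adjusted p = 0.0059). The call at 8 hr was lost without WT replicate 1 at 0 hr (adjusted p = 0.0581), WT replicate 2 at 8 hr (0.0582) or S513A replicate 2 at 8 hr (0.0558).

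**Figure D2:**
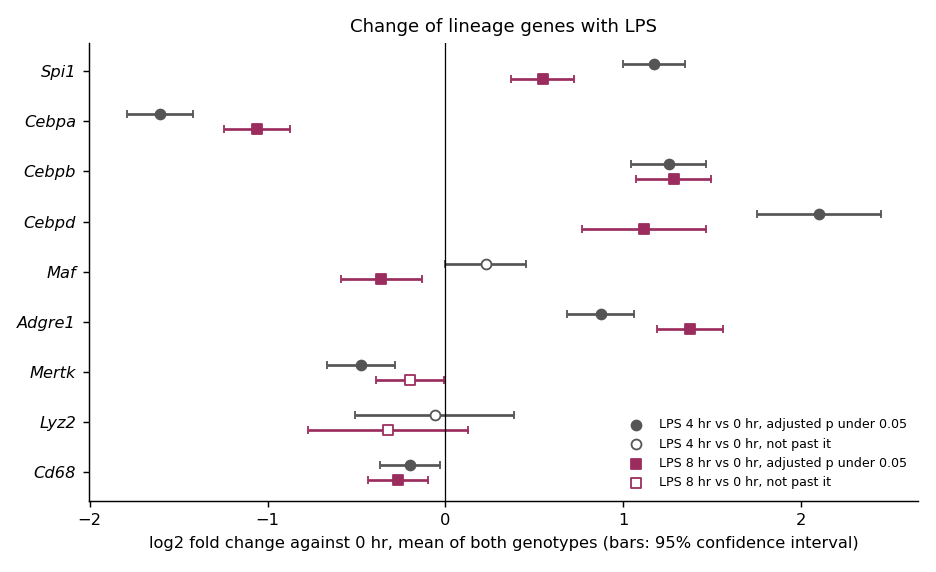
Log2 fold change of the 9 genes at 4 hr (grey circles) and 8 hr (purple squares) of LPS against 0 hr, as the mean of both genotypes with the 95% confidence interval of the limma model. Filled symbols have an adjusted p under 0.05. *Cebpd* reaches 2.101 at 4 hr and *Cebpa* -1.61, while the intervals of *Lyz2* include 0 at both times.

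*Adgre1* (Entrez 13733, chr17:57358691-57483527, plus strand, 22 exons in its longest transcript) rose at each step. Its log2 CPM in WT was 10.25 and 10.04 before LPS, 11.08 and 10.96 after 4 hr, and 11.53 and 11.58 after 8 hr. In S513A it was 10.02 and 10.05, 10.96 and 10.87, and 11.35 and 11.41. The 3 time points did not overlap. The log2 fold change was 0.87 at 4 hr (SE 0.085, limma adjusted p = 6.896e-06) and 1.38 at 8 hr (2.60-fold, adjusted p = 2.409e-07). The step from 4 to 8 hr was 0.50 (adjusted p = 0.00167). Under quantile normalization the 4 hr value was 0.41 and still passed.

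*Mertk* (Entrez 17289, chr2:128698956-128802894, plus strand) dipped at 4 hr. WT libraries had a log2 CPM of 6.73 and 6.73 before LPS, 5.95 and 6.27 after 4 hr, and 6.32 and 6.12 after 8 hr. S513A libraries had 6.44 and 6.43, 6.05 and 6.16, and 6.55 and 6.54. The libraries at 4 hr lay below those at 0 hr, and at 8 hr WT was below its own 0 hr level and S513A above. The log2 fold change was -0.48 at 4 hr (SE 0.087, limma adjusted p = 0.000775) and -0.20 at 8 hr (adjusted p = 0.0823). The recovery of 0.28 from 4 to 8 hr passed (adjusted p = 0.0391) but was lost in 14 of 24 alternatives, among them the omission of any single library other than WT replicate 2 at 4 hr or WT replicate 2 at 8 hr (adjusted p = 0.0618 to 0.153). The difference at 8 hr passed without WT replicate 1 at 4 hr (adjusted p = 0.0281) or WT replicate 2 at 4 hr (0.0283), with only the libraries compared (0.0262), without both libraries that stand apart (0.0464), with a trend with transcript length removed (0.0345), and under quantile normalization, where it was -0.39 (0.0033).

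*Lyz2* (Entrez 17105, chr10:117277331-117282321, minus strand) did not pass the test at any time. In WT its log2 CPM was 14.14 and 13.88 before LPS, 14.19 and 13.61 after 4 hr, and 13.94 and 14.03 after 8 hr. In S513A it was 14.01 and 14.22, 13.87 and 14.35, and 13.14 and 13.86. The lowest values, 13.61 and 13.14, were those of the 2 libraries with the fewest short transcripts. The log2 difference from 0 hr was -0.06 at 4 hr (95% interval -0.51 to 0.39, limma adjusted p = 0.825) and -0.32 at 8 hr (interval -0.77 to 0.13, adjusted p = 0.225). Changes within these intervals are not excluded. The 8 hr value was -0.14 without S513A replicate 1 at 8 hr and -0.50 without S513A replicate 2 at 8 hr. Its close copy *Lyz1* could share reads with it, and stood between 8.07 and 9.6 log2 CPM. Averaged over the genotypes, *Lyz1* was not called at either time. Within S513A alone, *Lyz1* was called lower after 8 hr (limma adjusted p = 0.0321).

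*Cd68* (Entrez 12514, chr11:69664213-69666153, minus strand) was lower after LPS by a small step. In WT the log2 CPM was 10.69 and 10.7 before LPS, 10.59 and 10.54 after 4 hr, and 10.47 and 10.56 after 8 hr. In S513A it was 10.93 and 10.82, 10.62 and 10.59, and 10.53 and 10.51. No library with LPS reached the lowest at 0 hr, and libraries at 4 and 8 hr overlapped. *Cd68* fell by 0.20 at 4 hr (SE 0.076, limma adjusted p = 0.0462) and by 0.27 at 8 hr (adjusted p = 0.0146). The call at 4 hr was lost in 16 of 24 alternatives, among them the omission of any single library other than WT replicate 1 at 4 hr (adjusted p = 0.06205 to 0.1405). The call at 8 hr was lost without WT replicate 1 at 8 hr (0.0616) or S513A replicate 1 at 0 hr (0.0588), and with a trend with transcript length removed (0.0543). Under quantile normalization the fall was 0.64 at 4 hr and 0.56 at 8 hr.

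Within the C/EBP family the balance changed with LPS. Per exonic kilobase, *Cebpb* was 1.14 to 1.26 times *Cebpa* in the 4 libraries at 0 hr, 8.4 to 8.93 times at 4 hr and 5.69 to 6.27 times at 8 hr. *Cebpa* made up 44.7% (SD 1.19) of the summed level per kilobase of *Cebpa*, *Cebpb* and *Cebpd* at 0 hr, 9.78% (SD 0.311) at 4 hr and 13.8% (SD 0.451) at 8 hr. The share of *Cebpd* was 1.81%, 5.21% and 2.58%. These ranges did not overlap between 0 hr and either later time. Of the other family members in the table, *Cebpg*, whose product pairs with other C/EBP proteins, fell by 0.70 at 4 hr and 0.39 at 8 hr, and *Ddit3*, the stress factor CHOP, fell by 0.48 at 4 hr (limma adjusted p = 0.00317), with a difference of -0.03 at 8 hr (adjusted p = 0.831). Counting the 3 members above, 2 of the 5 tested were higher and 3 lower at 4 hr, beside 29.1% and 26.7% of all genes.

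**Figure D3:**
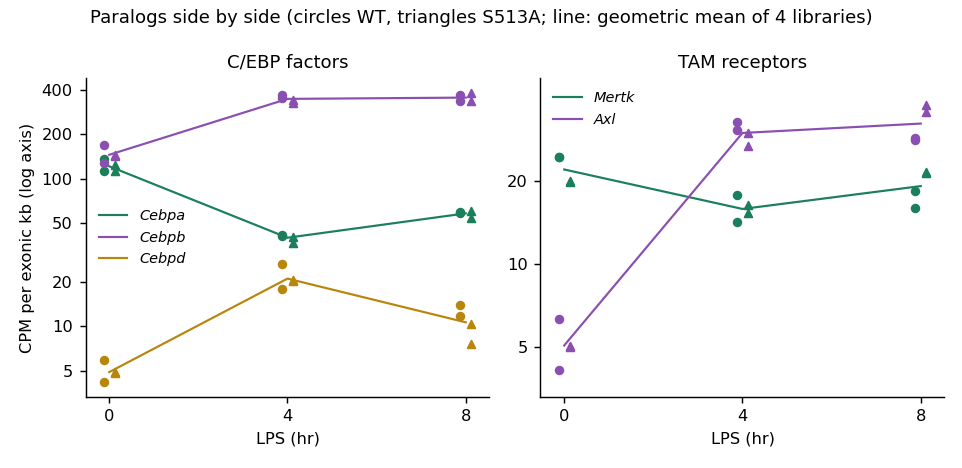
Level per exonic kilobase (CPM, log axis) of C/EBP genes (left) and TAM receptor genes (right) in each library against hours of LPS, with circles for WT, triangles for S513A and lines through the geometric means of 4 libraries. *Cebpb* and *Cebpa* separate after LPS, and *Axl* passes *Mertk* by 4 hr.

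The small MAF genes, whose products lack an activation domain and can pair with each other or with other leucine zipper factors, rose together. The log2 fold change at 4 hr was 2.31 for *Maff* (SE 0.135, limma adjusted p = 1.265e-07), 1.13 for *Mafg* and 1.01 for *Mafk*. At 8 hr it was 1.65 for *Maff*, 1.07 for *Mafg* and 0.47 for *Mafk*, so all 3 passed at both times, while *Maf* was called at 8 hr in the other direction. Over all genes tested, 29.1% were called higher at 4 hr and 24.5% at 8 hr.

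The TAM receptors *Mertk* and *Axl* share the bridging ligand Gas6, and protein S (*Pros1*) is a further ligand of *Mertk*. *Axl* rose by 2.56 (log2) at 4 hr (SE 0.117, limma adjusted p = 1.78e-08) and by 2.68 at 8 hr. Both ligand genes fell, *Gas6* by 1.44 at 4 hr and 1.94 at 8 hr, and *Pros1* by 0.59 and 1.19, each past the test. Per kilobase *Mertk* was 3.86 to 5.93 times *Axl* at 0 hr and 0.433 to 0.64 times *Axl* in all 8 libraries with LPS. Of the 4 TAM genes tested, 1 was higher and 3 lower at 4 hr, where 29.1% of all genes were called higher and 26.7% lower.

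The families of the marker genes moved in different ways. *Adgre5*, which encodes the adhesion receptor CD97, fell by 2.31 at 4 hr (limma adjusted p = 2.85e-08) and by 1.63 at 8 hr, opposite to *Adgre1*, and *Adgre4* rose by 0.81 and 0.50. *Lamp1*, a main lysosomal membrane protein gene of the *Cd68* family, fell by 0.23 at 4 hr (adjusted p = 0.0308) and 0.48 at 8 hr. *Lamp2* differed from 0 hr by -0.12 and -0.20 (adjusted p = 0.291 at 4 hr).

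Among 10 ETS and IRF genes that act with or beside PU.1, *Spi1* included, 5 were higher and 3 lower at 4 hr, and 5 higher and 2 lower at 8 hr. The largest changes were those of *Ets2*, a factor downstream of MAP kinases, with 3.15 at 4 hr (limma adjusted p = 2.054e-09), of *Spic*, a PU.1 relative, with 1.84 at 8 hr, and of *Ets1* with 1.36 at 4 hr. *Spic* and *Ets1* started from a low level (mean log2 CPM 0.31 and 0.67 at 0 hr). *Fli1* fell by 0.85 at 4 hr and 0.40 at 8 hr, *Elf1* by 0.28 and 0.37, and *Irf8*, a PU.1 partner, fell by 0.47 at 4 hr (adjusted p = 0.000151) and differed by 0.09 at 8 hr. Of 14 other lineage factors tested, 6 were higher and 4 lower at 4 hr, and 7 higher and 4 lower at 8 hr. Of all genes, 29.1% were higher and 26.7% lower at 4 hr, and 24.5% and 21.6% at 8 hr. The repressor gene *Gfi1* had 0 reads in all 4 libraries at 0 hr and 12 to 20 reads at 4 hr, which is at least 6.8-fold higher when set against 3 reads per library. *Bhlhe40*, a basic helix-loop-helix repressor gene, fell by 2.04 at 4 hr and 1.57 at 8 hr, *Klf4* by 1.06 and 1.31, and *Runx2* by 0.95 and 1.33. *Runx3* fell by 1.04 at 4 hr, and *Gata6*, the factor of resident peritoneal macrophages, by 1.57 at 8 hr from a low level (mean log2 CPM 1.61 at 0 hr). *Gfi1b*, with 2 to 4 reads at 0 hr and 5 to 18 at 4 hr, also passed as higher (adjusted p = 0.000883).

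The general macrophage markers moved in both directions. Of 18 tested, 6 were higher and 3 lower at 4 hr (29.1% and 26.7% of all genes), and 8 higher and 5 lower at 8 hr (24.5% and 21.6% of all genes), with a median log2 fold change of -0.18 and 0.25. The largest changes came at 8 hr, with *Cx3cr1*, the fractalkine receptor gene, at 2.22 from a low level (mean log2 CPM 0.14 at 0 hr). *Mrc1*, which encodes the mannose receptor, fell by 1.98 (limma adjusted p = 5.904e-08), and *Trem2*, a lipid-sensing receptor gene, fell by 1.33. The other calls in the downward direction at 8 hr were *Lgals3* (-1.23), *Tyrobp* (-0.73) and *Itgam* (-0.45), of which *Lgals3* also fell at 4 hr, by 0.42. The growth factor receptor gene *Csf1r* rose by 0.42 at 8 hr (adjusted p = 0.0074) after a difference of -0.17 at 4 hr (adjusted p = 0.20).

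Across the 12 libraries, among the 8353 genes whose log2 CPM averaged 3 or more, the 2 genes with the highest Pearson r to each of the 9 were listed as a description, since libraries share time points. They were *Ccl4* and *Ssr3* for *Spi1* (0.992 each), *Gnpda1* and *Stra6l* for *Cebpa* (0.993 each), *Axl* (0.992) and *Cdc42ep2* (0.991) for *Cebpb*, and *Ccl9* (0.991) and *Ndel1* (0.980) for *Cebpd*. For *Maf* they were *Tle3* (0.969) and *Igf1r* (0.967), for *Adgre1* *Clec4a1* and *Siglece* (0.989 each), and for *Mertk* *Ppp1r12c* (0.943) and *Kat6b* (0.938). *Polr1c* (0.946) and *Slc25a4* (0.941) came closest to *Lyz2*, and *Ctsa* (0.962) and *Ctsb* (0.956) to *Cd68*. Among the 9 genes themselves, r was 0.97 between *Spi1* and *Cebpd*, -0.95 between *Spi1* and *Cebpa*, and 0.93 between *Cebpb* and *Adgre1*.

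The responses were also examined in each genotype. In WT, 6 of the 9 genes were called at 4 hr and 7 at 8 hr, where 41.3% and 34.3% of all genes were called. In S513A, 5 were called at 4 hr and 6 at 8 hr, where 43.2% and 39.9% of all genes were called. *Spi1*, *Cebpa*, *Cebpb*, *Cebpd* and *Adgre1* were called in the same direction in both genotypes at both times. For *Cebpa* the log2 fold change at 4 hr was -1.59 in WT and -1.62 in S513A, and for *Adgre1* it was 0.87 and 0.88. These contrasts each have 2 libraries a side, and in S513A at 8 hr the calls of *Spi1*, *Cebpd* and *Cd68* were lost without S513A replicate 1 at 0 hr, which left 3. *Spi1* (adjusted p = 0.0544), *Cebpd* (0.0677) and *Cd68* (0.0806) were also lost without S513A replicate 2 at 8 hr, where *Lyz2* passed at -0.98 (0.0268), and *Cebpd* (0.0509) and *Cd68* (0.0569) without S513A replicate 2 at 0 hr. *Cd68* was lost without S513A replicate 1 at 8 hr (0.0898), and came to -0.06 with a trend with transcript length removed. That setting called *Cd68* in WT at 8 hr (-0.47, 0.0259), *Maf* in S513A at 8 hr (-0.38, 0.00331) and in WT at 4 hr (0.32, 0.0083), and *Mertk* in S513A at 4 hr (-0.34, 0.016). In WT at 8 hr the call of *Maf* was lost without any 1 of the 4 libraries compared (0.0519 to 0.124) and that of *Mertk* without WT replicate 2 at 8 hr (0.0897). At 4 hr, *Maf* in WT (0.0175) and *Mertk* in S513A (0.0150) passed without WT replicate 1 at 4 hr, and *Mertk* in S513A without WT replicate 2 at 4 hr (0.0151). Under quantile normalization *Spi1* lost its call at 8 hr in each genotype (adjusted p = 0.0688 in WT and 0.0792 in S513A) and *Adgre1* its call at 4 hr in WT (0.0956). Under the same normalization *Cd68* gained a call in WT at 4 hr (-0.60, adjusted p = 0.00233) and 8 hr (-0.56, 0.00409) and in S513A at 4 hr (-0.68, 0.00091), and *Mertk* in S513A at 4 hr (-0.53, 0.00516).

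The second question was whether the S513A substitution changed these genes. None of the 9 passed the limma test between S513A and WT at 0, 4 or 8 hr, or as the mean of the time points, where 0.0337%, 0.0168%, 0.0337% and 0.0673% of all genes were called. An unadjusted p under 0.05 was reached by 1 of the 9 genes at 0 hr, 1 at 4 hr, 2 at 8 hr and 0 for the mean, and by 949, 833, 1487 and 798 of all 11885 genes. Averaged over the time points, the difference of *Spi1* was 0.03 (95% interval -0.12 to 0.17), that of *Cebpa* -0.07 (-0.22 to 0.08) and that of *Cebpb* -0.05 (-0.22 to 0.13). For *Adgre1* it was -0.13 (-0.28 to 0.02), for *Cd68* 0.07 (-0.06 to 0.21) and for *Cebpd* -0.21 (-0.50 to 0.07). These intervals do not show that the genotypes are alike.

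The largest single differences were *Cebpd* at 8 hr, *Lyz2* at 8 hr and *Maf* at 4 hr. *Cebpd* was 0.53 lower in S513A at 8 hr (interval -1.02 to -0.03, limma adjusted p = 0.395), where both S513A libraries lay below both WT libraries. The lower of them, S513A replicate 1, is the library at -0.51 in transcript balance, and its *Cebpd* value lay 0.5 below the mean of the time point. *Lyz2* differed by -0.48 at 8 hr (interval -1.12 to 0.15), and the lower S513A library there was the one with few short transcripts. The balance at 8 hr was -0.51 and 0.01 in S513A and 0.2 and 0.33 in WT. For *Cebpd* and *Lyz2* at 8 hr it therefore cannot be told apart from the genotype. *Maf* was 0.39 lower in S513A at 4 hr (interval -0.71 to -0.07, adjusted p = 0.622), without overlap between the genotypes. The balance at 4 hr was 0.21 and -0.61 in WT and -0.03 and 0.42 in S513A. *Maf* deviations from the time point's mean were 0 and 0.39 in WT and -0.12 and -0.27 in S513A. The libraries at -0.61 and 0.42 thus held the highest and the lowest *Maf* value at 4 hr. With a trend with transcript length removed, none of the 9 genes passed between the genotypes at any time.

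**Figure D4:**
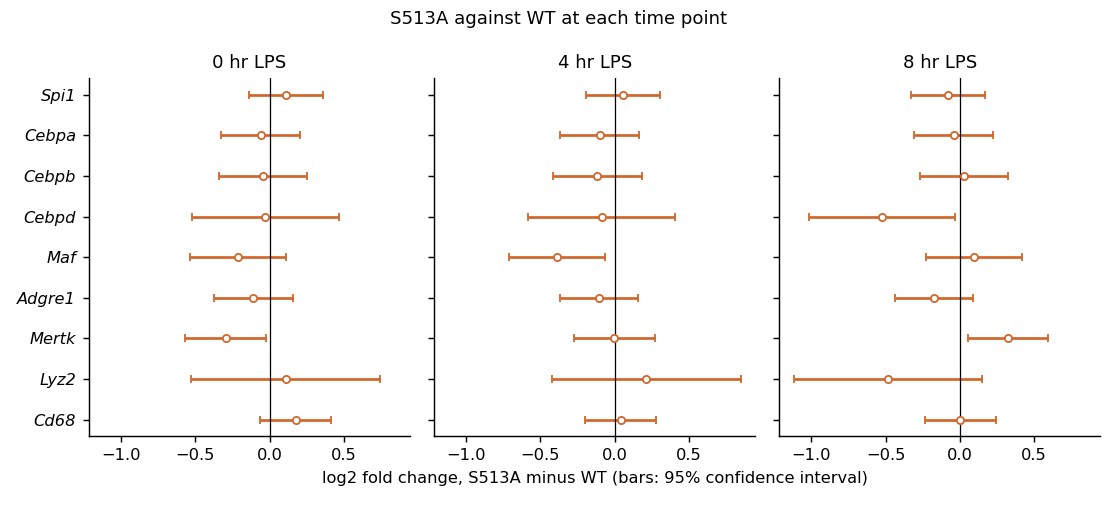
Log2 fold change of S513A minus WT for the 9 genes (horizontal axis) at 0, 4 and 8 hr of LPS, with the 95% confidence interval of the limma model. None of the 27 differences had an adjusted p under 0.05, and *Mertk* lies at -0.30 at 0 hr and 0.32 at 8 hr.

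The interaction of genotype and LPS was not called for any of the 9 genes, nor for any other gene tested (0% at 4 hr and 0% at 8 hr), while 144 of 11885 genes at 4 hr and 2405 at 8 hr had an unadjusted p under 0.05. Without S513A replicate 2 at 8 hr, 651 genes passed at 8 hr, none of them among the 9, and for *Mertk* the adjusted p was then 0.0955. The largest interaction among the 9 was that of *Mertk* at 8 hr. Its log2 change from 0 to 8 hr was -0.51 in WT (limma adjusted p = 0.0083) and 0.11 in S513A (adjusted p = 0.509), a difference of 0.62 (interval 0.24 to 1.00, adjusted p = 0.193). The balance of short and long transcripts moved in the same libraries, from -0.2 and -0.19 to 0.2 and 0.33 in WT and from 0.22 and 0.19 to -0.51 and 0.01 in S513A. With a trend with transcript length removed, the *Mertk* difference was 0.47 (adjusted p = 0.232).

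**Figure D5:**
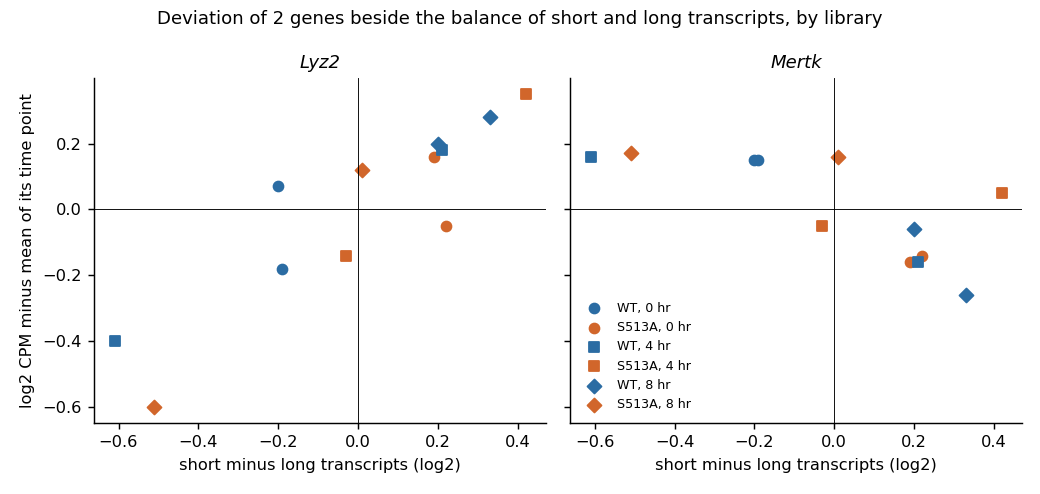
Log2 CPM of *Lyz2* (left) and *Mertk* (right) minus the mean of the library's time point, against the median log2 deviation of the shortest 20% of transcripts minus that of the longest 20%, with 1 point per library, WT in blue, S513A in orange and a symbol for each time point. The 2 libraries at -0.61 and -0.51 have the lowest *Lyz2* deviations, -0.4 and -0.6, and *Mertk* deviations of 0.16 and 0.17.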

How the data were processed

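RNA of WT and S513A PECs at 0, 4 and 8 hr of LPS was examined in 12 libraries, with groups taken from the labels. The authors mapped paired reads to mm10 with HISAT2 as unstranded and counted them with featureCounts 1.6.3 (submitters' processing notes and methods). The strand setting of the counting, the normalization program and the annotation are not given in the sources used here. The deposited values are log2 CPM after 0.5 read was added. Whole reads were recovered from them, with a largest departure of 0.00145 read. Tests used limma 3.58.1 (R 4.3.3; a mean per group, 6 residual degrees of freedom, a prior with a trend) for the 11885 genes that reached 1 CPM in 2 or more libraries. Tests were two-sided with Benjamini-Hochberg adjustment. Depth was 9525979 to 12439960 reads, and 3 reads were the floor, for counting error only. Lengths and positions came from the GRCm38 annotation (GENCODE), matched for 93.1% of genes. Named genes were the 9, the tested paralogs, and, from the lists of ETS and IRF partners, other lineage factors and general macrophage markers, the 3 largest called changes and genes against the rest where 5 or fewer were called. Outside this rule, *Csf1r*, the remaining lineage factors called higher, and the genes named from lists of other cell types were chosen after their values were seen. So were the correlations among the 9 genes. The result of 1 gene that the rule covers is not reported here. The genes and lists were chosen with earlier results of these data known. Replicate numbers were not used as pairs in the model reported. Python 3.11.15, pandas 2.3.3 and matplotlib 3.10.9 were used, and the model was tested on simulated data. Alternatives were other filters, a further pseudocount, median-ratio and quantile scaling, a replicate block, other priors, voom weights, only the libraries compared, and each library left out. Leaving out both libraries that stand apart in transcript length, and removing a trend with transcript length, were added after seeing the data.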

Additional observations from a re-analysis of the deposited data

Results flagged for a closer look

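*Mertk* at 8 hr lay on opposite sides of its 0 hr level in the 2 genotypes. Both WT libraries at 8 hr (6.32 and 6.12 log2 CPM) lay below both at 0 hr (6.73 and 6.73). Both S513A libraries at 8 hr (6.55 and 6.54) lay above both at 0 hr (6.44 and 6.43). The fall in WT passed the limma test (-0.510, adjusted p = 0.0083), but the change in S513A did not (0.109, adjusted p = 0.509). This pattern was picked out from the genes described here, and its share over all genes was not counted. The difference between the changes was 0.619 on the log2 scale and did not pass the limma test of the interaction (adjusted p = 0.193, unadjusted p = 0.00465), where 2405 of 11885 genes had an unadjusted p under 0.05. Leaving out each library in turn gave 0.519 to 0.72, with adjusted p values from 0.0777 to 0.573. The balance of short and long transcripts changed in the same libraries, and with a trend with transcript length removed the difference was 0.465 (adjusted p = 0.232).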

How the results depend on the processing

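The calls of *Spi1*, *Cebpa*, *Cebpb*, *Cebpd* and *Adgre1* for LPS, averaged over genotypes, kept their direction and their side of the threshold in all 24 alternatives at 4 hr and at 8 hr, as did that of *Mertk* at 4 hr. With each library left out, the number of the 9 genes called was 6 to 8 at 4 hr, 6 to 8 at 8 hr, 5 to 6 between 4 and 8 hr, 6 to 7 and 5 to 7 in WT at 4 and 8 hr, 5 to 7 in S513A at 4 hr and 3 to 6 in S513A at 8 hr, and 0 in every comparison of genotypes. Fitted on only the libraries compared, S513A against WT at 0 hr called 1 gene, *Mertk* (-0.30, adjusted p = 0.049), with 693 genes called in all against 4. The balance of short and long transcripts at 0 hr was -0.2 and -0.19 in WT and 0.22 and 0.19 in S513A. It therefore cannot be told apart from the genotype in this comparison. Over all alternatives, the number of all genes called was 2021 to 3982 between 4 and 8 hr (3043 in the model reported), 2489 to 5959 in WT (4079) and 2994 to 5425 in S513A (4744) at 8 hr, 0 to 3 (2) and 0 to 6 (4) between genotypes at 4 and 8 hr, 3 to 23 (8) for their mean, and 0 to 651 (0) for the interaction at 8 hr. The causes of these changes were not tested. With the replicate block, 6 genes were called at 4 hr, since *Cd68* was lost (adjusted p = 0.0656), and *Mertk* between 4 and 8 hr was lost (0.0611), while *Lyz2* at 8 hr in S513A was gained (0.049). The labels do not say whether the replicate numbers pair the samples. Replicate differences correlated at -0.75 to 0.76 between groups, and at -0.36 to 0.76 between groups of 1 genotype. The libraries that stand apart in transcript balance enter these values, so they cannot settle it. Under quantile normalization, uncalled values changed sign: *Lyz2* to 0.21 at 4 hr and 0.055 at 8 hr, *Cd68* between 4 and 8 hr to 0.081, and the mean S513A difference of *Spi1* to -0.0070, of *Mertk* to -0.014 and of *Lyz2* to 0.067. Without both libraries that stand apart in transcript length, an alternative chosen after seeing the data like the removal of the length trend, *Lyz2* at 4 hr was 0.086 and the calls were 6 at 4 hr and 8 at 8 hr. Uncalled values that changed sign with a library left out were *Lyz2* at 4 hr (-0.20 to 0.086), *Cebpb* between 4 and 8 hr (-0.019 to 0.076), and the mean S513A differences of *Spi1* (-0.019 to 0.076), *Cebpb* (-0.11 to 0.021), *Mertk* (-0.047 to 0.062) and *Lyz2* (-0.18 to 0.066).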
